A study of Mus musculus with 8 samples.

Results

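The circles described here come from Slc8a1, the mouse gene of the sodium-calcium exchanger NCX1. They were chosen by the host gene name in the deposited table of circular RNAs (circRNAs), which gave 14 circles of 27391. RNA came from hearts of male wild-type (WT) mice, in 2 groups of 4 mice with 1 library each. The TAC mice had undergone transverse aortic constriction, a narrowing of the aorta that raises the pressure against which the left ventricle pumps. The sham mice had the operation without the constriction, and hearts of both groups were taken 8 weeks after surgery. The sources used here give neither the age nor the strain of the mice, nor the part of the heart sampled. The comparison asks which circles differ in a heart under lasting pressure overload.

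NCX1 lies in the cardiomyocyte membrane and exchanges sodium for calcium, and it is the main route by which calcium leaves the cell after each beat. A circRNA forms by splicing in the backward direction, from an exon's end to its own start or that of an exon upstream, which closes the RNA into a ring without free ends. Only reads across that back-splice junction separate the ring from the linear mRNA. A circle of the long second exon of Slc8a1 has long been known and is abundant in heart muscle of several mammals. The exon holds the start codon of NCX1, and the circle has been studied as a binder of the muscle microRNA family miR-133.

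On the genome, the exon 2 circle occupies chromosome 17, 81647809 to 81649638 (mm10, minus strand), within a gene that runs from 81373105 to 81738377. Exons are numbered here by the 12-exon GENCODE M21 transcript of the gene. The circle is 1830 nt long, with 31 nt of 5′ UTR followed by 1799 nt of coding sequence. The other 13 circles hold no part of exon 2, and 11 of them lie between exons 3 and 11. For these 11, both ends match annotated exon borders, and their spliced lengths run from 194 to 995 nt. The remaining 2 share a start at 81444972, which is no exon border of that transcript, and end with exons 9 and 10. Their start is called unannotated below in that sense only, since the deposited data list both under another isoform of the gene. No circle joined exon 2 to a later exon, so the exon 2 circle shared neither of its splice ends with another circle.

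Junction reads behind the main values below cross the following joins, shown to let the rings be told from the linear mRNA. Lower case marks the last 15 bases of the upstream side of the join and capitals mark the first 15 bases of the downstream side, in GENCODE M21 transcript sequence, 5′ to 3′. The exon 2 circle and the linear joins of exon 2 were:
Exon 2 circle (81647809 joined to 81649638): gaacgatgaaatagtGTTGGAGCAGTTGGA
Linear join of exon 1 to exon 2: gacggcttgacagagGTTGGAGCAGTTGGA
Linear join of exon 2 to exon 3: gaacgatgaaatagtCAAAACAATATCAGT

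The capitals of the ring are those of the linear join into exon 2, and its lower case is that of the linear join out of exon 2. Only the combination is particular to the ring. The 3 most abundant circles that start with exon 3 all carried the same capitals, shown here because they differ in the exon whose end is used:
Exons 3 to 9 (81428182 joined to 81445593): tcactgtcagcgctgCAAAACAATATCAGT
Exons 3 to 10 (81408067 joined to 81445593): gaacctcggtgccagCAAAACAATATCAGT
Exons 3 to 8 (81432644 joined to 81445593): tcttacgaattcaagCAAAACAATATCAGT

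The start codon of NCX1 stands 31 bases into the exon 2 circle, in capitals in the next line.
Start codon in exon 2: ttattgtacaacATGcttcgattaagt
The length of the ring is a multiple of 3, 610 codons. Read from this start codon, exon 2 gives 599 whole codons and leaves 2 bases, and the frame then crosses the junction into the 5′ UTR. A full turn returned to the start codon in frame without a stop codon. Translation was not measured, and this is a property of the reference sequence alone. The muscle microRNA miR-133b is shown because its family is the one studied with this circle; its seed, bases 2 to 8, is in capitals (RefSeq, GRCm38.p6).
mmu-miR-133b-3p: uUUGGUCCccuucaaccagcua
The complement of the seed, GGACCAA, was searched on the strand of the circle, across the junction as well, with no other motif. It occurred 1 time, in capitals below.
Position 967 of exon 2: ttgatgagagGGACCAAgatgatgagg
The same 7 letters occurred in 5 of 36 single-exon circles of 1500 to 2200 nt in the table (13.9%), this one included. A match of letters is not a binding site.

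Introns of very unequal length surround these exons. Exon 2 is preceded by an intron of 88670 nt and followed by one of 202215 nt. The second of these also precedes exon 3, where 5 of the other 13 circles start. Exons 9 and 10, where 4 and 5 of the other circles end, are followed by introns of 19839 and 18999 nt. The introns between exons 3 and 9 are 106 to 4970 nt long. The circles of exon 2, exons 3 to 9 and exons 3 to 10, bounded by the long introns, held 3017 of the 3119 Slc8a1 reads (96.7%).

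Libraries differed widely in depth, which sets how firmly each can be read. TAC replicates 1 to 4 had 33132, 1119, 21074 and 36120 back-spliced reads, and sham replicates 1 to 4 had 40796, 3963, 17890 and 100142. The deposited values, called normalised reads here, are reads divided by 1 size factor per library, so that 1 read counted 5.77 in TAC replicate 2 and 0.195 in sham replicate 4. They are not scaled by length, and each circle has 1 junction whatever its length. TAC replicate 2 and sham replicate 2 were the shallowest libraries, and libraries also differed in how long their circles were. Leaving out the exon 2 circle, circles over 1000 nt held 12.7, 7.75, 10.4 and 9.38% of reads in TAC replicates 1 to 4 and 2.53, 12.1, 2.42 and 1.98% in sham replicates 1 to 4. Sham replicate 2 thus lay inside the TAC range of this measure. Circles of cardiomyocyte markers were present for 9 of 10 genes, Pln being the one without, and summed to 225 to 713 normalised reads in TAC and 176 to 495 in sham libraries. Circles of fibroblast markers (5 of 8 genes) summed to 0 to 1.49 in TAC and 1.66 to 4.54 in sham. These 9 circles had 32 reads in all and none was tested, so both ranges rest on few reads. The sham maximum was 1 read in sham replicate 2. In TAC replicate 2, the library at 0, 1 read would count 5.77. Endothelial markers (7 of 7) summed to 5.77 to 44.5 in TAC and 11.8 to 36.3 in sham, and leukocyte markers (3 of 7) to 9.26 to 11.5 in TAC and 4.93 to 17.4 in sham. Smooth muscle and pericyte markers (2 of 7) summed to 0 to 1.27 in TAC, 3 reads in all, and to 0 in sham, with Acta2, Tagln, Cnn1, Rgs5 and Cspg4 at 0.

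Most back-spliced output of the gene came from the exon 2 circle. It had 2587 of the 3119 Slc8a1 back-spliced reads, and the other 13 circles together had 532. It was the circle with the highest mean of all 27391, at 279.8 normalised reads over the 8 libraries, ahead of exon 2 of Nfix at 151. In each of the 8 libraries it had more reads than any other Slc8a1 circle. By reads it ranked 1, 7, 1 and 1 among all circles of TAC replicates 1 to 4, and 73, 1, 90 and 165 in sham replicates 1 to 4. Circles of exons 3 to 9 had 317 reads and those of exons 3 to 10 had 113. The circle of exons 3 to 9 had more reads than that of exons 3 to 10 in 6 of 8 libraries and fewer in 1, sham replicate 4, with 13 against 21 reads. The other 11 circles had 102 reads together and at most 30 each, so that their order rests on few reads.

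**Figure D1:**
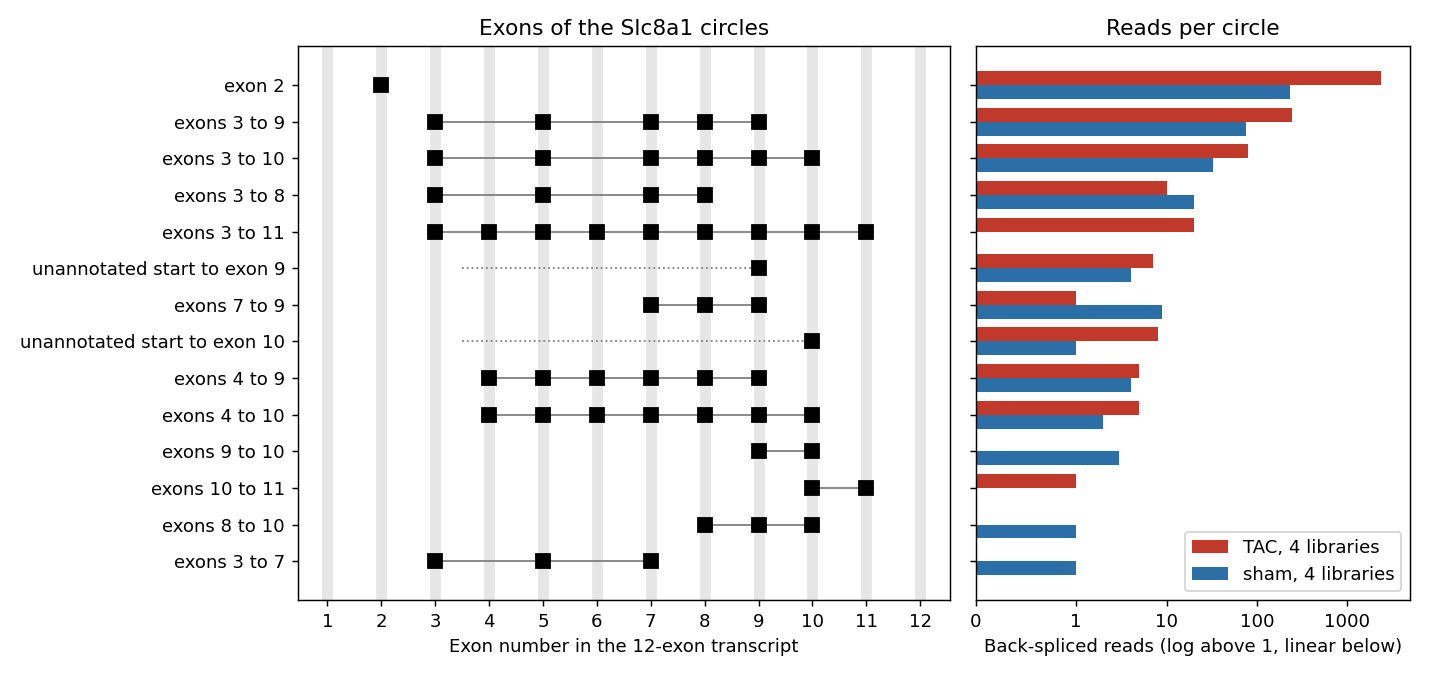
Left, the exons (squares) of each Slc8a1 circle by the transcript the table lists. Dotted lines mark 2 circles whose start is no exon border of the 12-exon transcript. Right, back-spliced reads summed over 4 TAC (red) and 4 sham (blue) libraries, where the exon 2 circle had 2354 and 233 reads and no other circle exceeded 317 in all.

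The exon 2 circle was higher in 3 of the 4 TAC libraries than in any sham library. TAC replicates 1 to 4 stood at 952, 57.7, 559 and 331 normalised reads (1281, 10, 543 and 520 reads). Sham replicates 1 to 4 stood at 24.6, 277, 20.7 and 15.95 (65, 61, 25 and 82 reads). The groups overlapped through the same 2 shallow libraries, TAC replicate 2, the low one of its group, and sham replicate 2, the high one. The means were 475 ± 379 in TAC and 84.6 ± 128 in sham (SD, n = 4 each). In limma, fitted with an intensity trend on log2(value + 0.195) over the 3735 circles above 0 in at least 4 libraries, the log2 fold change was 3.03 ± 0.53 (SE, Benjamini-Hochberg adjusted p = 4.4e-05). That SE follows the trend over all circles, and the spread of this circle itself gives an SE of 1.29. The exact permutation test over the 8 libraries, two-sided on the same log2 values, gave p = 0.0571, where the smallest it can give is 0.0286. It was the only one of the 3735 circles called by limma, 0.0268%. The quasi-likelihood test of edgeR, run on recovered reads, gave 2.74 ± 0.95 (adjusted p = 0.0356), where 13.1% of 717 circles were called. DESeq2 gave 2.55 with an adjusted p of 0.112, where 1.68% of 1367 circles were called, and without TAC replicate 1 limma gave 2.50 with an adjusted p of 0.133.

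**Figure D2:**
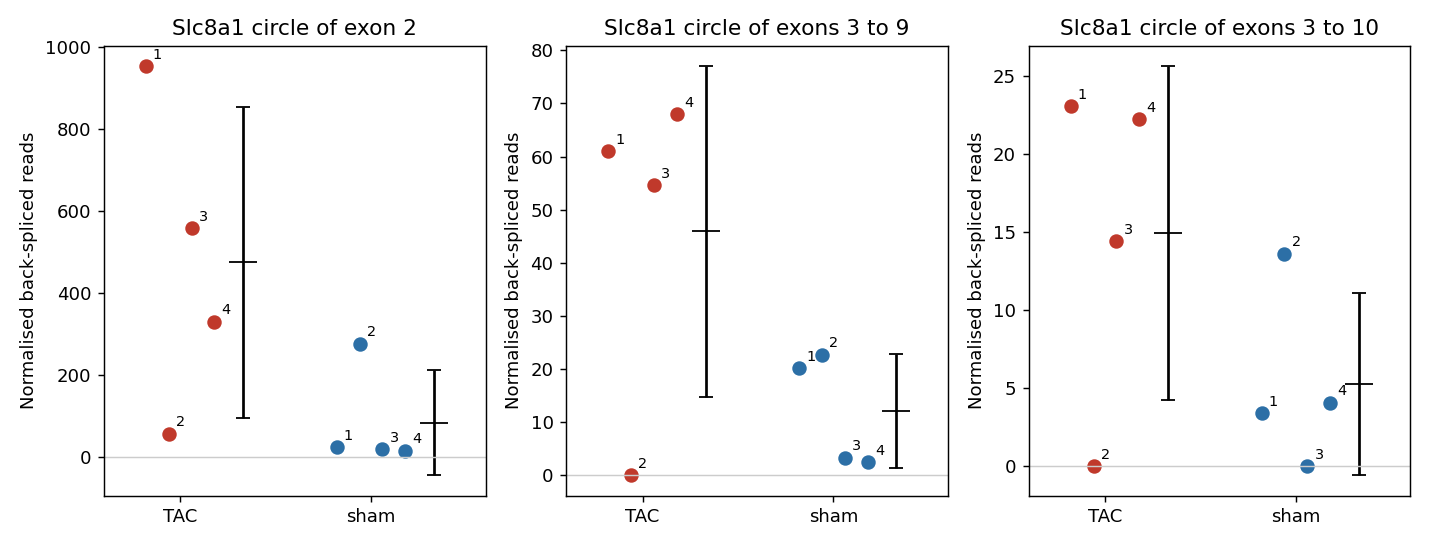
Normalised back-spliced reads of the 3 most abundant Slc8a1 circles in each TAC (red) and sham (blue) library, numbered by replicate, with mean and SD beside them (n = 4). TAC replicates 1, 3 and 4 lie above every sham library for each of the 3 circles, and TAC replicate 2 has 0 reads for the lower 2.

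Both shallow libraries decided the size of this difference. In the 6 libraries of at least 5000 reads the exon 2 circle stood at 331 to 952 in TAC and 15.95 to 24.6 in sham, without overlap. With these libraries edgeR gave a log2 fold change of 4.69 ± 0.49 (adjusted p = 2.4e-05), where 30% of 1145 circles were called, and limma gave 4.79 ± 0.32, where 11.6% of 3494 circles were called. Of circles over 1000 nt, this one included, that edgeR fit called 32 of 57 higher in TAC and 0 lower. That limma fit called 46 of 189 higher and 0 lower. With all 8 libraries, no Slc8a1 circle had every TAC library above every sham library, as 0.884% of the circles tested by limma had. Of the same tested circles, 23.8% had every deep TAC library above every deep sham library, and the Slc8a1 circles did so in 4 of 6 cases. These include the circle of the unannotated start to exon 9. It had 2, 2 and 3 reads in TAC replicates 1, 3 and 4, and 0, 0 and 4 in sham replicates 1, 3 and 4. It met the filter with 3 TAC libraries and 1 sham library, so its place among them rests on few reads. The edgeR fit without both shallow libraries was added after the data were seen.

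The difference also moved with circle length. With the length trend of each library removed, the limma log2 fold change was 1.31 ± 0.75 (adjusted p = 0.603). Of 231 circles over 1000 nt tested by limma, 202 had a positive fold change, against 2029 of all 3735. The median log2 fold change of these long circles was 1.37, and that of all circles 0.15. With the filter at 10 reads in at least 4 libraries, 9 of 11 long circles were positive (median 0.71), against 145 of all 349. By fold change the exon 2 circle ranked 14 among the 231, and 41 among all 3735. What part circle length has in the difference was not tested beyond these values. As a share of all reads in circles over 1000 nt, the exon 2 circle took 24.0, 10.4, 20.2 and 13.5% in TAC replicates 1 to 4. In sham replicates 1 to 4 it took 5.94, 11.5, 5.46 and 3.97%. TAC replicates 1, 3 and 4 exceeded every sham library. The 95% Wilson intervals of TAC replicates 2 (5.76 to 18.1%) and 4 (12.4 to 14.6%) overlapped that of sham replicate 2 (9.03 to 14.5%). The means were 17.02 ± 6.19% in TAC and 6.71 ± 3.28% in sham, a difference of 10.3 percentage points (two-sided exact permutation test, p = 0.0571, n = 4 each).

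The share of all back-spliced reads uses no size factor. By this share 2 TAC libraries, replicates 1 and 3, lay above every sham library. The exon 2 circle made up 3.87, 0.894, 2.58 and 1.44% of reads in TAC replicates 1 to 4 and 0.159, 1.54, 0.140 and 0.0819% in sham replicates 1 to 4. Sham replicate 2 lay above TAC replicates 2 and 4, with an interval of 1.20 to 1.97% against 0.486 to 1.64% and 1.32 to 1.57%. The mean share was 2.19 ± 1.32% in TAC and 0.480 ± 0.707% in sham (two-sided exact permutation test, p = 0.0857, n = 4 each). Wilson intervals cover counting error only, and they are too narrow where reads are PCR copies, which are not separate molecules. In tissue, fewer cells of a type and less RNA per cell cannot be told apart, and linear Slc8a1 RNA was not analysed here.

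**Figure D3:**
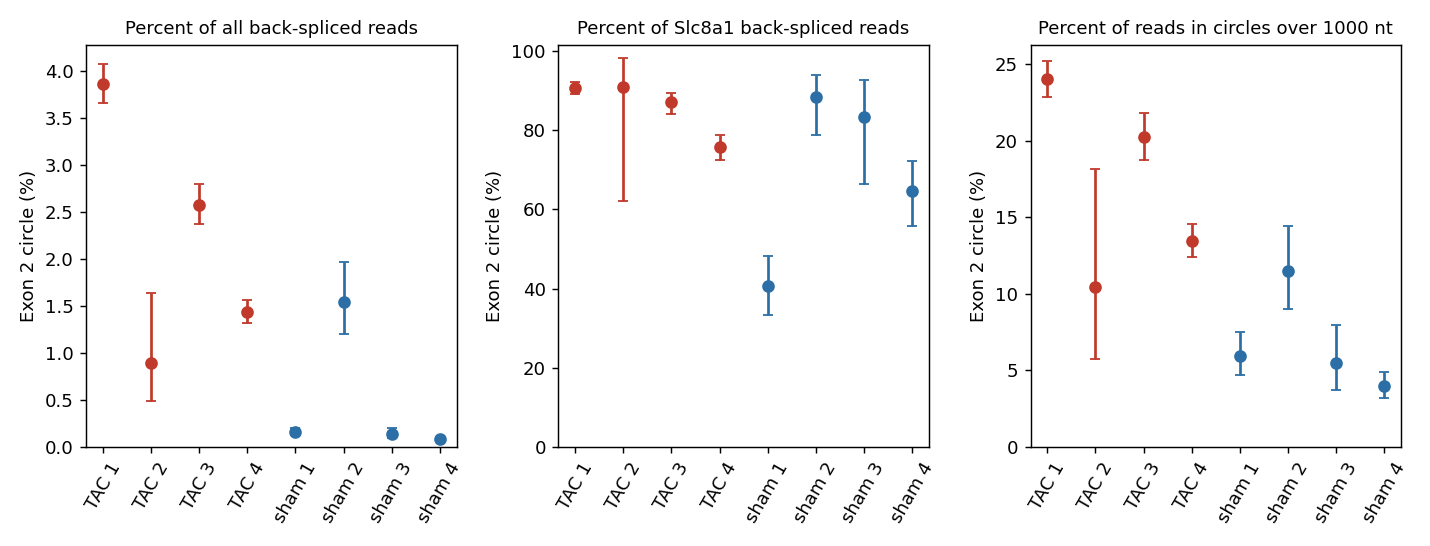
Percent of reads taken by the exon 2 circle in each TAC (red) and sham (blue) library, of all back-spliced reads (left), of Slc8a1 back-spliced reads (middle) and of reads in circles over 1000 nt (right). Points are libraries and bars are 95% Wilson intervals, and sham replicate 2 stands among the TAC libraries in the left panel at 1.54%.

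Within the gene, the balance between the exon 2 circle and the rest was not shown to differ between groups. It held 90.7, 90.9, 87.0 and 75.8% of Slc8a1 reads in TAC replicates 1 to 4, and 40.6, 88.4, 83.3 and 64.6% in sham replicates 1 to 4. The means were 86.1 ± 7.10% in TAC and 69.2 ± 21.7% in sham (two-sided exact permutation test, p = 0.200, n = 4 each). The interval of sham replicate 1 (33.3 to 48.4%) lay below that of each other library, although PCR copies can make such intervals too narrow. Without sham replicate 1 the difference of 16.9 percentage points became 7.34. The other 13 circles together made up 0.395, 0.0894, 0.384 and 0.460% of all reads in TAC replicates 1 to 4 and 0.233, 0.202, 0.0279 and 0.0449% in sham replicates 1 to 4. That sum too was higher in TAC replicates 1, 3 and 4 than in every sham library (p = 0.0857, two-sided exact permutation test).

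Among the circles that start with exon 3, that of exons 3 to 9 was the most abundant (chromosome 17, 81428182 to 81445593, 425 nt by the listed isoform). The exons after exon 2 include those of the large cytoplasmic loop of NCX1 that are spliced alternatively between tissues. The junction does not show which inner exons a circle holds, and the listed isoform leaves out exons 4 and 6. It stood at 61.0, 0, 54.6 and 68.0 normalised reads in TAC replicates 1 to 4 (82, 0, 53 and 107 reads) and at 20.1, 22.7, 3.31 and 2.53 in sham replicates 1 to 4 (53, 5, 4 and 13 reads). TAC replicates 1, 3 and 4 lay above the sham range and TAC replicate 2 below it, although 0 reads at its depth still allow up to 17.3 normalised reads. The limma log2 fold change was 0.83 ± 1.25 with all libraries (adjusted p = 0.940) and 2.90 without TAC replicate 2 (adjusted p = 0.0013). In edgeR it was 1.96 ± 0.80 (adjusted p = 0.0753), and 2.51 without both shallow libraries (adjusted p = 0.00937).

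With 113 reads, the circle of exons 3 to 10 (81408067 to 81445593, 701 nt) stood at 23.1, 0, 14.4 and 22.3 normalised reads in TAC replicates 1 to 4 and at 3.41, 13.6, 0 and 4.09 in sham replicates 1 to 4. Again TAC replicates 1, 3 and 4 exceeded every sham library, with sham replicate 2 close below. In limma the log2 fold change was 1.29 ± 1.53 (adjusted p = 0.919), and in edgeR 1.98 ± 0.75 (adjusted p = 0.0581). Without both shallow libraries edgeR gave 2.56 (adjusted p = 0.00593).

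Longest of those that start with exon 3 was the circle of exons 3 to 11 (81388810 to 81445593, 995 nt), whose listed isoform keeps all inner exons. It had 5, 0, 4 and 11 reads in TAC replicates 1 to 4 and 0 in each sham library. With the reads of each group pooled over its size factors, the TAC to sham ratio was 15.1. There the sham group was taken at a floor of 3 reads. The ratio is no lower bound, since it leaves out counting error in the TAC reads and the spread between mice. In sham replicate 2, 0 reads still allow up to 13.6 normalised reads, above the value of this circle in every TAC library. The circle was above 0 in 3 libraries, too few for the limma filter. It passed in edgeR without both shallow libraries, where 4 of the 4 Slc8a1 circles tested were called higher, against 16.4% of all circles called higher and 13.6% lower. The circle met that filter through its TAC libraries alone, so the call adds nothing to the reads above.

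The 2 shortest circles that start with exon 3 were rare. The circle of exons 3 to 8 (81432644 to 81445593, 325 nt) had 2, 0, 2 and 6 reads in TAC replicates 1 to 4 and 20, 0, 0 and 0 in sham replicates 1 to 4. All its sham reads came from replicate 1, the library where the exon 2 circle held the smallest share of the gene. Its means were 1.84 ± 1.58 in TAC and 1.90 ± 3.79 in sham, so the means ran opposite in sign to the limma log2 fold change of 1.42 ± 1.45 (adjusted p = 0.887). That of exons 3 to 7 had 1 read, in sham replicate 1.

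The 8 circles that start elsewhere had 51 reads together. Both circles with the unannotated start had 20 of them. The one ending with exon 9 had 2, 0, 2 and 3 reads in TAC replicates 1 to 4 and 0, 0, 0 and 4 in sham replicates 1 to 4, with a limma log2 fold change of 1.94 ± 1.24 (adjusted p = 0.834). The one ending with exon 10 had 5, 0, 0 and 3 reads in TAC and 1, 0, 0 and 0 in sham. Circles that start with exon 4 had 16 reads. That of exons 4 to 10 had 3, 1, 1 and 0 reads in TAC and 2, 0, 0 and 0 in sham, with a log2 fold change of 2.23 ± 1.31 (adjusted p = 0.834), and that of exons 4 to 9 had 5 reads in TAC replicate 3 and 4 in sham replicate 1. The circle of exons 7 to 9 had 1 read in TAC replicate 4, against 2 in sham replicate 1 and 7 in sham replicate 4. The circles of exons 9 to 10, 10 to 11 and 8 to 10 had 3, 1 and 1 reads, each in 1 library. None of these could be read as different between groups at this depth.

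Across the 13 circles without exon 2, the splice ends were used unequally. Exon 3 was the start of 5 circles with 481 of the 532 reads (90.4%). Exon 9 was the end of 4 circles with 347 reads (65.2%), and exon 10 of 5 circles with 25% of the reads. Both circles that end with exon 11 had all of their 21 reads in TAC libraries. Of the 13, 8 were seen in both groups, 2 in TAC libraries only and 3 in sham libraries only. The 5 circles seen in 1 group had 26 reads, of which 20 belonged to the circle of exons 3 to 11. The share of all circles seen in 1 group only is not given here, so these counts are not read as a trait of Slc8a1.

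Of the 14 circles, 6 passed the limma filter. All 6 fold changes were positive and 1 was called, the exon 2 circle. Their median log2 fold change was 1.68, against 0.15 over all 3735 circles tested. The circles of exons 3 to 8 and exons 4 to 10 met the filter with 3 TAC libraries and 1 sham library. The circle of the unannotated start to exon 9 did so too. Such a filter favours a positive sign, so these circles add nothing on direction. With no filter, 10 of the 14 fold changes were positive and 4 negative. The median was then 1.06, against 0.52 over all 27391 circles. The other 8 circles were below the filter and were given as reads. Summed over its circles, the gene stood at 548 ± 412 normalised reads in TAC and 105.9 ± 139 in sham (SD, n = 4 each). The limma log2 fold change of the sum was 2.66 ± 0.40 (adjusted p = 8.4e-08, own-spread SE 1.23), where 0.0337% of 2967 host genes were called. In edgeR the sum gave 2.37 ± 0.68 (adjusted p = 0.0173), where 8.24% of 1020 host genes were called. That edgeR call was lost without TAC replicate 1 (adjusted p = 0.222) or 3 (0.112) and without sham replicate 1 (0.0543), 3 (0.120) or 4 (0.0992).

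**Figure D4:**
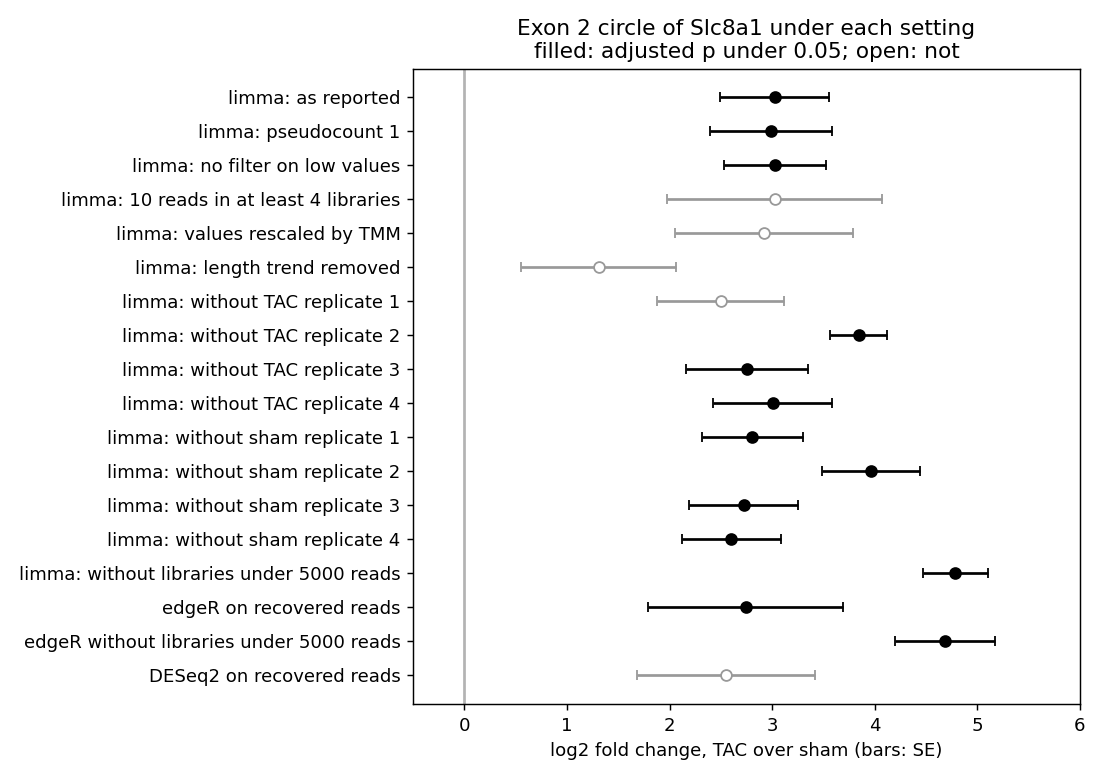
Log2 fold change (TAC over sham) of the exon 2 circle in each limma setting, in DESeq2, and in edgeR with all libraries and without those under 5000 reads. Bars are 1 SE, and points are filled where the adjusted p was under 0.05. The edgeR fits that left out 1 library, most of which lost the call, are not shown. All points are positive, from 1.31 with the length trend removed to 4.79 without the 2 libraries under 5000 reads.

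No single-exon circle of like length from another gene approached the level of the exon 2 circle. In the range of 1500 to 2200 nt, 35 single-exon circles of other hosts had 299 reads in all, against 2587 for exon 2 of Slc8a1. The 5 with the largest means came from R3hcc1l, Mfsd6, Zfp516, Tet3 and Chd9. Exon 2 of R3hcc1l (1790 nt) stood at 19.3, 0, 13.4 and 10.8 normalised reads in TAC replicates 1 to 4 and 0.379, 13.6, 3.31 and 1.17 in sham replicates 1 to 4. As with the Slc8a1 circle, sham replicate 2 was the highest of its group and TAC replicate 2 the lowest. Its log2 fold change was 2.31 in edgeR (adjusted p = 0.0364) and 0.98 ± 1.56 in limma (adjusted p = 0.946). Mfsd6 (1592 nt) averaged 6.26 in TAC and 5.43 in sham, and Zfp516 (1926 nt) 3.88 in TAC and 0.0948 in sham. Chd9 (1614 nt) averaged 2.37 in TAC and 0.414 in sham. Mfsd6, Zfp516 and Chd9 were not called with all 8 libraries. Tet3 (2158 nt) averaged 2.93 in TAC and had 0 reads in sham. In limma 4 of the 5 tested circles of this kind had a positive fold change and 1 a negative one, with a median of 0.98 and a maximum of 3.14. Zfp516, which gave that maximum, and Chd9 met the filter with 3 TAC libraries and 1 sham library. Such a filter favours a positive sign, so these 2 circles add nothing on direction. Without both shallow libraries, edgeR called 3 of 3 tested single-exon circles of this length higher in TAC, exon 2 of Slc8a1 included. On the same libraries limma called 4 of 6 higher, again with that circle included. The 6 hold Zfp516 and Chd9, again above 0 in 3 TAC libraries and 1 sham library, so the filter favours their sign here too. Over all circles that edgeR fit called 16.4% higher and 13.6% lower. That limma fit called 284 of 3494 higher and 123 lower. Of all circles over 1000 nt tested in edgeR with all 8 libraries, 13 of 37 were called higher in TAC and 0 lower. Over all circles those shares were 7.39 and 5.72%. Leaving out 1 library moved the count called higher widely, to 2 of 24 without TAC replicate 1, 0 of 55 without TAC replicate 3, 2 of 30 without TAC replicate 4, 5 of 70 without sham replicate 3 and 2 of 40 without sham replicate 4. It was 8 of 39 without sham replicate 1, 33 of 71 without TAC replicate 2 and 30 of 58 without sham replicate 2. At an unadjusted p under 0.05 the fit without TAC replicate 3 had 21 of the 55.

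The 5 circles whose levels followed the exon 2 circle most closely were chosen by Pearson correlation of log2 values over the 8 libraries, among 114 circles of other hosts seen in every library. They came from Ehbp1 (exons 16 to 21, r = 0.96, rho = 0.88), Ttn (exons 104 to 110, 0.96 and 0.90), Stk39 (exons 2 to 5, 0.94 and 0.90), Nfix (exon 2, 0.94 and 0.93) and Stx6 (exons 2 to 7, 0.89 and 0.90). The median r over the 114 was -0.03. Ttn encodes titin, the giant spring protein of the sarcomere, and Nfix a transcription factor. The points share library, depth and size factor, and the correlations are a description without a test. In median length the 5 circles were 656 nt, against 364 nt for all circles compared. In edgeR the log2 fold change was 3.48 for Ehbp1 (adjusted p = 0.00598), 2.63 for Ttn (adjusted p = 0.0281), 2.37 for Stx6 (adjusted p = 0.0358), 1.99 for Stk39 (adjusted p = 0.0847) and 1.92 for Nfix (adjusted p = 0.121). Choosing circles by their likeness to the exon 2 circle favours those with its TAC excess and with its low TAC replicate 2 and high sham replicate 2, so neither these fold changes nor the shared pattern is a separate result.

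**Figure D5:**
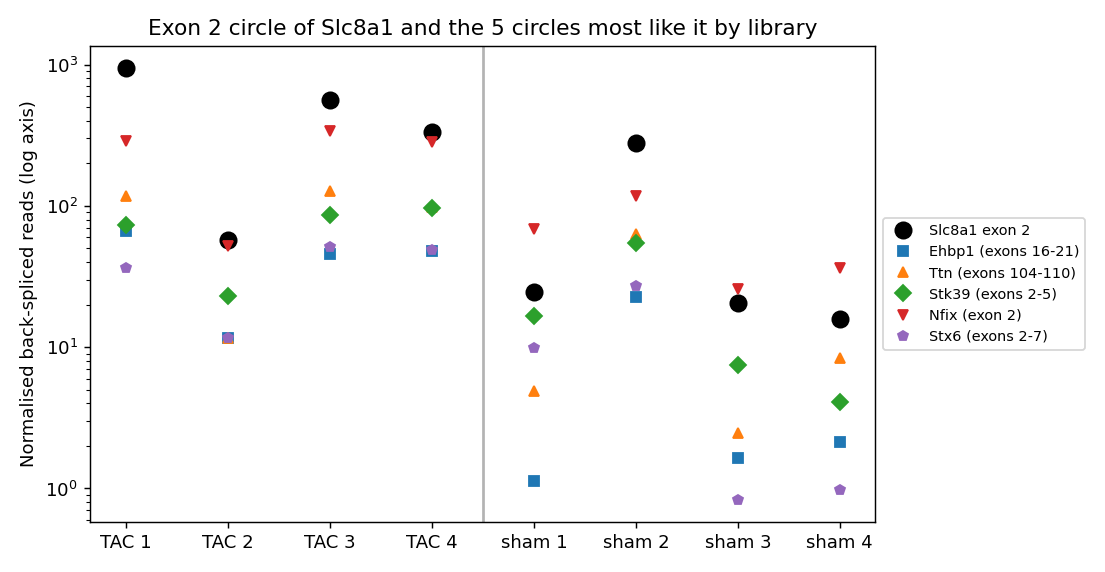
Normalised back-spliced reads (log axis) of the exon 2 circle of Slc8a1 and of the 5 circles with the highest correlation to it, in each TAC and sham library. Sham replicate 2 is the highest sham library and TAC replicate 2 the lowest TAC library for each circle, and the exon 2 circle stands at 277 in that sham library.

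NCX1 works with channels, pumps and buffers that move calcium in each beat, and 44 genes of calcium handling were listed. Circles came from 29 of them, 403 circles in all. No circle of the related exchangers Slc8a2 and Slc8a3 was analysed here. Slc8b1, the mitochondrial sodium-calcium exchanger, had 3 circles with 37 reads together. The largest, of exons 6 to 14, averaged 3.73 ± 2.64 in TAC and 1.39 ± 1.08 in sham. In limma 80 circles of the list were tested, of which 1, the exon 2 circle, was called higher and 0 lower. Of the 74 tested circles of the other listed genes, limma called 0, and 3 had an unadjusted limma p under 0.05. Of these hosts' circles edgeR called 1 of 11, against 13.1% of all circles, and DESeq2 1 of 26, against 1.68% of all circles. Over the 80 circles 57 fold changes were positive and 23 negative, with a median of 0.57 against 0.15 over all circles. That balance rested on single libraries: it was 28 positive and 27 negative (median 0.02) without TAC replicate 1, and 27 positive and 28 negative (median -0.02) without TAC replicate 4. Over all circles the median was then -0.30 and -0.28.

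Among the other hosts of the list, edgeR called a circle of Ryr2, the channel that releases calcium from the sarcoplasmic reticulum. The circle of its exons 24 to 29 averaged 55.6 ± 28.5 in TAC and 9.80 ± 6.79 in sham, and edgeR gave 2.52 ± 0.82 (log2 fold change, adjusted p = 0.0270). In limma it was 2.67 ± 1.05 (adjusted p = 0.834). The edgeR call was lost in 6 of 8 fits that left out 1 library, and held without TAC replicate 2 or sham replicate 2. Asph encodes junctin and related proteins, and its circle of exons 2 to 3 averaged 35.0 ± 5.59 in TAC and 131 ± 159 in sham (edgeR -2.22, adjusted p = 0.0657). That of exons 4 to 5 of Atp2a2, the calcium pump SERCA2, averaged 6.24 ± 4.94 in TAC and 20.3 ± 16.7 in sham (edgeR -1.83, adjusted p = 0.0911). That of exons 2 to 3 of Cacna1c, the L-type calcium channel, averaged 29.4 ± 17.7 in TAC and 15.8 ± 5.85 in sham (limma 0.62). With all 8 libraries these circles of Asph, Atp2a2 and Cacna1c passed neither limma nor edgeR. Without both shallow libraries edgeR called these circles of Asph (-2.51, adjusted p = 0.00486) and Atp2a2 (-1.76, adjusted p = 0.0167) lower in TAC, opposite in direction to the exon 2 circle. It called that of Ryr2 higher (2.97, adjusted p = 0.000769). Another Asph circle, of exons 4 to 12, was also called higher (1.89, adjusted p = 0.00581), so the called circles of Asph ran opposite ways. In that fit 7 of 28 tested circles of the list were called higher and 2 lower, against 16.4% and 13.6% of all circles. Of the 7, 4 were Slc8a1 circles, and the rest were those of Ryr2, exons 4 to 12 of Asph and exons 16 to 20 of Itpr2 (4.48, adjusted p = 0.0143). The Slc8a1 circle of exons 3 to 11 met the filter through TAC libraries alone, with 0 sham reads. So did that of Itpr2, with 1 sham read, so these calls add nothing to the reads.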

How the data were processed

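Back-spliced reads of heart RNA, extracted with a circRNA kit per the labels' protocols, were deposited as signal: read counts that the authors divided by 1 size factor per library. HISAT2, StringTie, DESeq2 and mm10 are named in the submitters' processing notes. No source used here names the circRNA caller: it is not given. Low values were whole multiples of 1 read in 100% of cases (tolerance 0.001), and reads were recovered from them. The 4 mice of each group were separate animals per the labels' protocols.

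The 14 members, the gene lists and the tests were chosen with earlier results of these data known. Named circles were all Slc8a1 circles, the 5 most correlated circles of other hosts, circles of the calcium list that passed and the largest circle of 4 other listed hosts, and the 5 largest single-exon circles of 1500 to 2200 nt. The Slc8b1 circle was named after its values were seen.

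Circles above 0 in at least 4 libraries were fitted with limma 3.58.1 (trend, log2(value + 0.195), fold changes on that scale, Benjamini-Hochberg at 0.05), in R 4.3.3. edgeR 4.0.16 (quasi-likelihood, TMM, minimum count 5 and total 15) and DESeq2 1.42.0 were run on recovered reads. Other alternatives were TMM rescaling, a pseudocount of 1, no filter, 10 reads in at least 4 libraries, removal of the length trend (loess span 0.5), leaving out each library, and leaving out libraries under 5000 reads. Shares were compared by exact permutation (SciPy 1.17.1, Python 3.11.15), with 95% Wilson intervals. Lengths and sequences came from GENCODE M21, which gave a length for 94.9% of circles. The fits were tested on simulated data.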

Additional observations from a re-analysis of the deposited data

Results flagged for a closer look

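In 6 of 20 group tests, 1 library stood far from the other 3 of its group (Dixon's test). Chance flags about 1 in 20 independent groups, which is no measure for these: 3 of the 6 are the same library seen through related values, and the other 3 are groups with 3 libraries at 0, where any value above 0 stands apart. The exon 2 circle in sham replicate 2 had 277.1 normalised reads, and its share of all reads there was 1.539%. The sum of all Slc8a1 circles in the same library was 313.5. That library had 3963 reads, and 12.1% of its reads outside the exon 2 circle came from circles over 1000 nt; whether either value has a part in its level was not tested. The circle of exons 3 to 8 had 7.584 in sham replicate 1, the unannotated start to exon 9 circle 0.7782 in sham replicate 4, and the circle of exons 4 to 10 had 0.7584 in sham replicate 1, each with the other 3 sham libraries at 0.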

How the results depend on the processing

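No fold change of a tested Slc8a1 circle or of their sum, and no difference in shares, changed direction under the alternatives run. For the circles of exons 3 to 8, exons 4 to 10 and the unannotated start to exon 9 this says little. Each was above 0 in 3 TAC libraries and 1 sham library, and fell below the limma filter when any of those was left out. For that of exons 3 to 8 DESeq2 gave a log2 fold change of 0.00034. Medians did: that of all circles (0.15) was -0.30, -0.18 and -0.28 without TAC replicates 1, 3 and 4, -0.20 without sham replicate 2, -0.26 with 10 reads, -0.07 with the length trend removed and -0.02 in edgeR, and that of the calcium list (0.57) was -0.02 without TAC replicate 4. The limma log2 fold change of the exon 2 circle stayed past the threshold with a pseudocount of 1, with no filter, without both libraries under 5000 reads and in edgeR. It missed the threshold in DESeq2 (2.55, adjusted p = 0.112), after TMM rescaling (2.92, adjusted p = 0.866), with 10 reads in at least 4 libraries (3.03, adjusted p = 0.827), with the length trend removed (1.31, adjusted p = 0.603) and in the exact permutation test (3.03, p = 0.0571). Leaving out 1 library gave 2.50 to 3.97 in limma, with the call lost without TAC replicate 1, and 2.23 to 4.33 in edgeR. There the call was lost without TAC replicate 1 (2.352), 3 (2.675) or 4 (3.03) and without sham replicate 1 (2.322), 3 (2.43) or 4 (2.23), and held without either shallow library. The Slc8a1 sum missed it in DESeq2 (2.19, adjusted p = 0.0746), after TMM (2.41, adjusted p = 0.142) and with 10 reads (2.66, adjusted p = 0.988). Without 1 library it ranged over 2.154 to 3.502 in limma, where the call held, and 1.86 to 3.36 in edgeR, where it was lost in 5 of 8 fits. The cause was not tested.

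Of all circles, limma called 1, against 94 in edgeR, 23 in DESeq2, 407 without the shallow libraries and 344 in edgeR without them. It called 0 after TMM (125 at an unadjusted p under 0.05), with 10 reads (16) and with the length trend removed (340), and 0 to 41 without 1 library (0 without TAC replicate 1, 41 without TAC replicate 2, 6 without sham replicate 2). In edgeR leaving out TAC replicate 3 gave 0 calls (154 circles had an unadjusted p below 0.05), against 9 without TAC replicate 1 or 4, 34 to 62 without sham replicate 1, 3 or 4, 230 without TAC replicate 2 and 248 without sham replicate 2. For the calcium list limma called 1, against 2 in edgeR, 12 without the shallow libraries and 9 in edgeR without them. It called 0 after TMM, with 10 reads and with the length trend removed, and 0 to 3 without 1 library.

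The edgeR fits without 1 library and without the shallow libraries, and the permutation test, were added after the data were seen. No paired analysis was possible because replicate numbers were given in accession order and pair no samples. TAC replicate 2, with 1119 reads, limits every comparison: 3 reads there are 0.268% of all reads.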
